A study of Mus musculus with 15 samples.

Results

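The genes Ep400, Sestd1, Aga, Myo18a, Trp53bp1, Plekhh3, Aaas, Tcirg1, Capn15 and Akap13, were examined transcript by transcript in antigen-primed mouse CD8+ T cells with and without costimulation. These 10 of 55536 annotated genes, with 118 of 141862 annotated transcripts, were picked by name because the shares of their transcripts had differed between the Ag and Ag+Costim libraries. The shares, gene levels and splicing values of the 10 genes below come from that same contrast and are given as a description, with no test. Poly(A) RNA was sequenced from OT-I CD8+ T cells, whose transgenic receptor recognizes the SIINFEKL peptide of ovalbumin. Donors lacked Rag1 or Rag2, and the cells were transferred into C57BL/6J recipients of either sex and of a range of ages. In the Ag group, recipients received the peptide with rat IgG, and in the Ag+Costim group the peptide with agonist antibodies against CD134 (OX40) and CD137 (4-1BB). Donor cells carrying CD45.1, Vα2 and Vβ5 were sorted from spleen and lymph nodes at day 4 by the labels, while the methods of the study name a time some hours earlier. There were 5 libraries per group, and libraries of naive OT-I cells were not analysed here. The labels do not tie each library to an animal, so every SD below measures the spread between 5 libraries.

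A gene can yield several transcripts through another start site, another 3′ end or another choice of exons. Changes inside the coding sequence alter the protein. Changes outside it leave the protein as it was and alter the untranslated regions, which bear sites for RNA-binding proteins and microRNAs, and transcripts with an early stop codon or a retained intron are often degraded or kept in the nucleus. T cell activation is a textbook setting of such switches, as with the exons of CD45. The 10 genes here encode nuclear proteins (Ep400, Trp53bp1, Aaas), lysosomal and vacuolar proteins (Aga, Tcirg1), proteins of the cytoskeleton and of kinase anchoring (Myo18a, Akap13), and the less studied Sestd1, Plekhh3 and Capn15.

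The deposited counts were StringTie estimates, with totals of 59598556 to 449401065 per Ag library and 332290834 to 639070261 per Ag+Costim library, which are not numbers of reads. Ag replicates 2 and 5 stood apart from the other libraries, with 59927 and 58669 transcripts above 0 against 89937 to 103193 in the other Ag libraries and 74075 to 78186 in the Ag+Costim libraries. Correlations of log2 levels ranged from 0.758 to 0.985 among Ag libraries and from 0.978 to 0.992 among Ag+Costim libraries. All 10 CD8 T cell markers were detected, with a summed level of 8190 to 17367 counts scaled to a common library total (CPM) in Ag and 8328 to 10342 in Ag+Costim. All 7 B cell markers had counts too, at a summed 587 to 1526 CPM in Ag and 460 to 703 CPM in Ag+Costim, and the 6 erythroid markers ranged from 12.2 to 1314 CPM in Ag and from 3.51 to 36.3 CPM in Ag+Costim. None of the markers was at 0 in every library. The part of these differences in the transcript shares was not tested, and the main differences that rest on Ag replicates 2 and 5 are also given without these libraries.

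Within each gene, the lead transcript is the one with the largest difference in mean share between groups, and its counterpart is the one with the largest difference in the other direction. The stretches of coding sequence that tell them apart are short in Plekhh3, Aga, Trp53bp1 and Akap13, while in Ep400 only the smallest of several is. They are shown here 5′ to 3′ on the coding strand, in part for Trp53bp1, Akap13 and Ep400, from the GENCODE M21 transcript sequences (mm10). These are bases that the switch adds to or takes from the message. In Plekhh3, capitals mark 9 bases at an alternative donor site (chr11:101165051-101165059, minus strand) and, in the other form, the bases that meet without them.
Plekhh3-201: tgctcaccagGTTTGAGAAtttgacttcg
Plekhh3-206: cgacgtgctcaccaGTttgacttcggagga

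In Aga, capitals mark 30 bases lost from Aga-203, of which 22 lie at the end of one exon (chr8:53518970-53518991, plus strand) and 8 at the start of the next (chr8:53520237-53520244). The capitals in Aga-203 mark the bases that meet in their absence.
Aga-201: GTATAAAATTCAAAATACCTGGTCGTGTAG
Aga-203: gcacatccacaaatGGggattcaccaatcc

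A whole exon of 150 bases (chr2:121208355-121208504, minus strand) separated the Trp53bp1 transcripts. Capitals mark the first and the last 15 bases of the exon and then the bases that meet when it is skipped.
Trp53bp1-202 into the exon: cccaggaaaactgagTCCTAGAAAAGGGAT
Trp53bp1-202 out of the exon: GACCACTGGAACCAGagaaacagttgtctc
Trp53bp1-201: cccaggaaaactgaGAgaaacagttgtctc

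The Akap13 transcripts differed by an exon of 66 bases (chr7:75683394-75683459, plus strand), with capitals as for Trp53bp1. A second stretch of 12 bases, present in Akap13-201 alone of this pair, lay at chr7:75611549-75611560.
Akap13-205 into the exon: cattcataggagaagTATGAGCTGGTGTCC
Akap13-205 out of the exon: CTTTAATATCAGAAGtttcagtctggaagg
Akap13-201: cattcataggagaaGTttcagtctggaagg

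In Ep400, a run of 21 bases at an alternative acceptor site (chr5:110668725-110668745, minus strand, capitals) was present in Ep400-204 and absent from Ep400-203. It is the smallest of 4 stretches that only Ep400-204 of the pair holds.
Ep400-204: gcttACCCGAGTCCCTACTTCTCAGctgca
Ep400-203: caggtggcccggctTCtgcaggcacaaggg

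The lead share moved by 19.95 to 78.66 percentage points between the group means, with a median of 37.3 points over the 10 genes. It was higher in Ag+Costim in 6 genes and lower in 4, and all 10 lead transcripts were annotated as protein-coding. The values of the 5 Ag and the 5 Ag+Costim libraries did not overlap in 6 genes (Sestd1, Aga, Myo18a, Trp53bp1, Plekhh3 and Aaas). Over the 9880 genes with a lead share, whose leads were picked in the same way, 3.79% had no overlap. The members were chosen by their shares, so nothing is read from this comparison. The 4 genes with overlap were Ep400, Tcirg1, Capn15 and Akap13, so the groups were less clearly apart there. In the transcript usage test over all genes, 29 of 10442 genes (0.278%) were called at a Benjamini-Hochberg adjusted p under 0.05 with a share change over 10 points. The members were all among the 29, which their selection had fixed, and nothing is read from it. With the replicate number as a block Ep400, Plekhh3 and Akap13 were not called, with limma Ep400 was not, and Akap13 was not without any one of Ag+Costim replicates 2 to 5 or without Ag replicates 2 and 5 together. Over all genes tested, the median change of the lead share was 4.7 points.

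**Figure D1:**
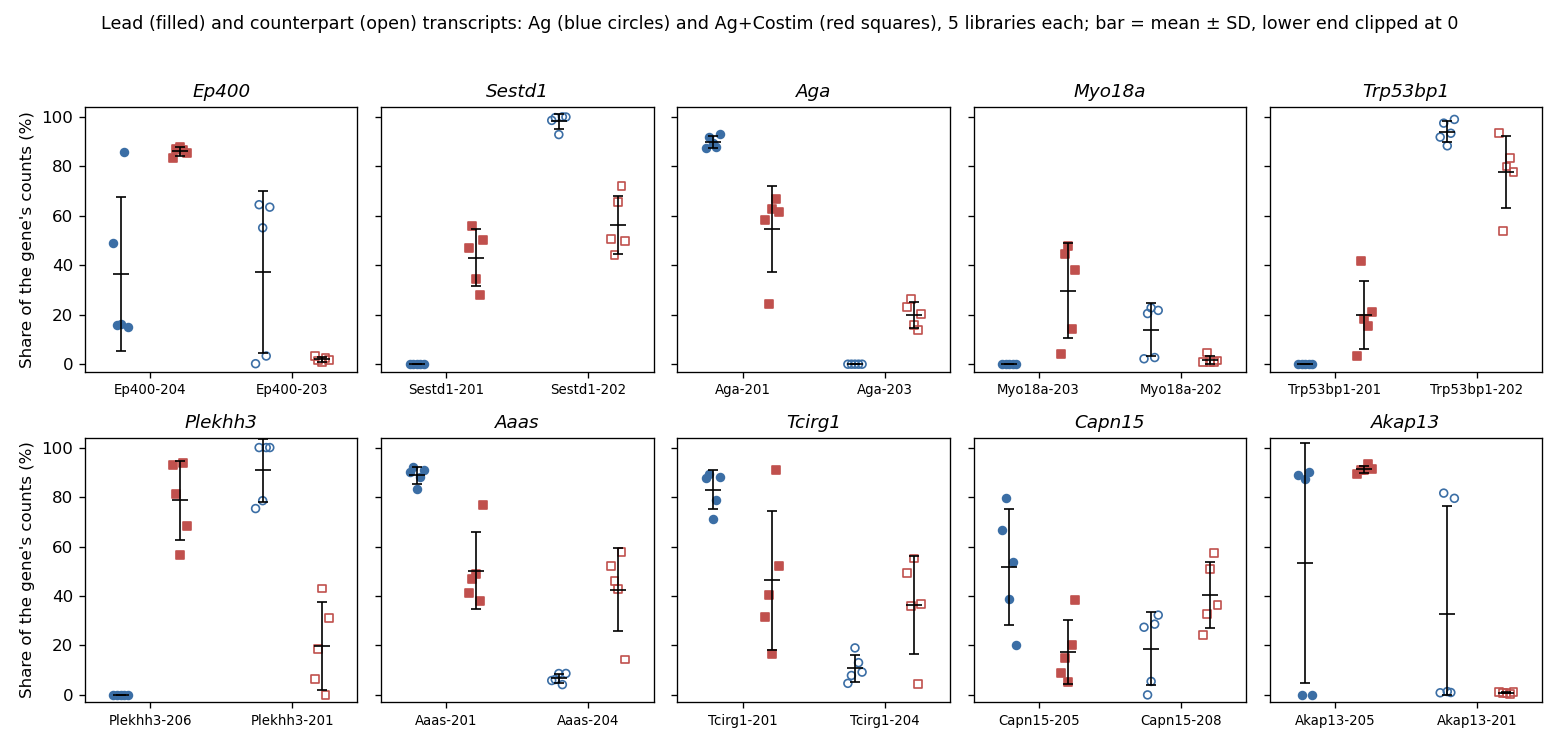
Share of each gene's counts (%, y axis) held by the lead transcript (filled) and its counterpart (open) in the 5 Ag (blue circles) and 5 Ag+Costim libraries (red squares), with mean and SD. The lead transcripts of Sestd1, Myo18a, Trp53bp1 and Plekhh3 sit at 0 in all Ag libraries, and the Ag libraries of Akap13 and Ep400 lie far apart from each other.

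Ep400 encodes the SWI/SNF-type ATPase of the TIP60 chromatin complex. The 2999-residue form Ep400-204 held 83.3%, 86.8%, 87.8%, 86.7% and 85.4% of all Ep400 counts in Ag+Costim replicates 1 to 5. In Ag replicates 1 to 5 its share was 49.1%, 15.8%, 16.2%, 85.9% and 15.1%, so 4 Ag libraries lay below every Ag+Costim library and Ag replicate 4 lay among them. The group means were 36.4% ± 31.2 (SD, n = 5) in Ag and 86.0% ± 1.74 in Ag+Costim. Its counterpart Ep400-203, of 2909 residues, held 0.20%, 64.5%, 55.1%, 3.31% and 63.5% in Ag and 0.78% to 3.47% in Ag+Costim. The 3035-residue form Ep400-201 was at 0 in all Ag+Costim libraries and in Ag replicate 4, and held 43.7%, 15.4%, 18.7% and 20.5% in the other Ag libraries. Ag replicates 2, 3 and 5 thus spread over 3 coding forms, Ag replicate 1 held mainly Ep400-204 and Ep400-201, and Ag replicate 4 held mostly Ep400-204, as the Ag+Costim libraries did.

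The Ep400 forms differ over the body of the protein. Adjoining stretches of 151, 170 and 147 bases (chr5:110691669-110693570), which code for residues 1691 to 1846 of Ep400-204, are absent from Ep400-203, as are the 21 bases shown above. Computed from the transcript counts, those 3 stretches were included in 60.7% ± 34.2 of counts in Ag (78.3% ± 34.3 without Ag replicates 2 and 5) and 97.7% ± 1.2 in Ag+Costim. The deposited percent spliced in (PSI) values, of which there is 1 per group with no replicate error, were also higher in Ag+Costim, at 0.953 against 0.794 for the 170-base exon and 0.792 against 0.658 for the 21 bases. The 108-base exon of Ep400-203 (chr5:110740182-110740289) went opposite ways in the 2 measures, from 63.4% ± 31.3 in Ag (49.4% ± 34.9 without Ag replicates 2 and 5) to 13.8% ± 1.7 in Ag+Costim by counts and from 0.184 to 0.269 in PSI. Without Ag replicates 2 and 5, the Ep400-204 difference was 35.6 points in place of 49.6.

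Trp53bp1 encodes 53BP1, which binds chromatin next to DNA double-strand breaks and favours their repair by end joining. The 1919-residue form Trp53bp1-201, without the 150-base exon, was at 0 in all 5 Ag libraries and held 3.50%, 41.6%, 18.2%, 15.4% and 21.2% in the Ag+Costim libraries. No Ag library overlapped with them, and Ag+Costim replicates 1 and 2 were the lowest and the highest. The Ag libraries held 68664 estimated Trp53bp1 counts in all, and since these are coverage estimates that a program assigns to transcripts, a 0 here and below sets no limit on the reads of that form. The 1969-residue form Trp53bp1-202 held 94.0% ± 4.31 in Ag and 77.7% ± 14.6 in Ag+Costim, with overlap. The skipped exon codes for residues 1359 to 1409, and its inclusion was 100% in every Ag library and 79.6% ± 14.4 in Ag+Costim. PSI of this exon went from 0.991 to 0.927, in the same direction and by -6.37 points.

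Aaas encodes aladin, a nucleoporin held at the nuclear pore by NDC1 and lost in triple A syndrome. The 546-residue transcript Aaas-201 held 90.1%, 92.1%, 83.2%, 88.0% and 90.9% in Ag replicates 1 to 5. It held 41.3%, 46.7%, 48.8%, 37.9% and 76.7% in Ag+Costim, all below the Ag values, with replicate 5 nearest to them. The counterpart Aaas-204 has no coding sequence, since it keeps a 71-base intron (chr15:102339254-102339324), and it held 6.71% ± 1.94 in Ag and 42.6% ± 16.8 in Ag+Costim. The switch was therefore between a coding message and a retained intron, and among the protein-coding Aaas transcripts alone the lead share differed by -2.0 points in place of -38.6. Over all protein-coding genes, retained-intron transcripts held 2.25% to 5.56% of counts in Ag and 2.57% to 3.22% in Ag+Costim. A relation of the Aaas values to this level was not tested. The PSI table, with 14 Aaas events and no value for this intron, held no Aaas event with a difference over 0.05.

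Aga encodes aspartylglucosaminidase, the lysosomal enzyme that cuts asparagine from the sugar chains of glycoproteins. Aga-201, of 346 residues, held 87.6%, 91.7%, 89.4%, 88.0% and 93.1% in Ag and 58.2%, 24.3%, 62.9%, 66.7% and 61.7% in Ag+Costim. All Ag+Costim libraries were lower than all Ag libraries, and replicate 2 was the lowest. The 336-residue Aga-203, which lacks the 30 bases (residues 226 to 236), was listed at 0 in all Ag libraries, over 40016 Aga counts. In Ag+Costim it held 23.2%, 26.3%, 15.9%, 13.7% and 20.2%. The third Aga transcript, Aga-202, carries an early stop and is typed as a target of nonsense-mediated decay. Its share was 10.1% ± 2.37 in Ag and 25.4% ± 13.5 in Ag+Costim, again without overlap. PSI did not show the same loss, since it went from 0.892 to 0.934 for the 22 bases and from 0.998 to 0.988 for the 8 bases, while inclusion by counts went from 100% to 80.1%.

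Tcirg1 encodes the a3 subunit of the proton-pumping V-ATPase. Its lead and counterpart code for the same 834 residues and differ at the 5′ end. Tcirg1-201 held 87.5%, 89.1%, 71.1%, 79.0% and 88.1% in Ag against 31.6%, 40.3%, 16.7%, 90.7% and 52.1% in Ag+Costim. Ag+Costim replicate 4 was higher than every Ag library, and the other 4 were lower than every Ag library. Without that replicate the difference was -47.8 points in place of -36.7. Tcirg1-204, with a 468-base stretch ahead of the coding sequence (chr19:3906524-3906991), held 10.8% ± 5.50 in Ag and 36.4% ± 19.7 in Ag+Costim. PSI of that stretch was 0.0456 and 0.0372, so it was not higher in Ag+Costim as the counts were. All transcripts with the 834-residue protein together held 93.8% ± 3.09 in Ag and 83.6% ± 8.2 in Ag+Costim.

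Myo18a encodes an unconventional myosin, whose long form carries an N-terminal extension with a PDZ domain. The lead Myo18a-203, a long form of 2035 residues, was listed at 0 in every Ag library, over 57169 Myo18a counts. It held 4.29%, 44.5%, 47.7%, 14.4% and 37.9% in Ag+Costim. The counterpart Myo18a-202, of 1704 residues, lacks the 999 coding bases for residues 1 to 333 and held 14.0% ± 10.6 in Ag and 1.84% ± 1.65 in Ag+Costim. More Myo18a-203 did not mean more long forms in every library, since Ag libraries held other long forms. The 8 transcripts that hold the 999 bases, of 1998 to 2083 residues, summed to 9.0%, 64.8%, 19.7%, 0.3% and 12.7% in Ag and 55.6%, 45.1%, 47.8%, 14.5% and 38.1% in Ag+Costim, with overlap. In Ag replicate 2 and Ag+Costim replicate 1 nearly all of it was the 2050-residue Myo18a-208, at 64.8% and 51.3%. The short form Myo18a-205, of 1700 residues, held 56.9% ± 35.4 and 54.8% ± 16.5, the largest mean share in both groups. PSI of the outermost start segment of Myo18a-203, 28 bases long, was 0.0235 in Ag and 0.479 in Ag+Costim, while that of the next 23 bases was 0.664 and 0.207.

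Akap13 encodes an anchor of protein kinase A. Akap13-205, with 2794 residues, held 88.8%, 0%, 87.2%, 90.1% and 0% in Ag replicates 1 to 5, against 89.5% to 93.5% in Ag+Costim. The other 3 Ag libraries lay at or just under the Ag+Costim range, and replicates 2 and 5 held none of this form. Those 2 libraries held 81.6% and 79.5% of Akap13-201, with 2776 residues, which was at 0.44% to 1.36% elsewhere. The difference of 38.0 points rested on them and was 2.5 points without them. PSI of the 66-base exon was 0.0702 in Ag and 0.0885 in Ag+Costim, although the transcripts with it held 97.7% ± 0.7 of the informative counts in Ag+Costim and 97.5% ± 0.3 in Ag without replicates 2 and 5. The 2 deposited measures thus differed here in level, with or without those libraries.

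Sestd1 encodes a protein with a SEC14 lipid-binding domain and spectrin repeats. Both transcripts code for the same 696 residues and differ at the ends. Sestd1-201 was at 0 in all Ag libraries (over 3814 Sestd1 counts) and held 46.9%, 55.9%, 34.4%, 27.9% and 50.03% in Ag+Costim. Sestd1-202, whose 3′ end runs 6215 bases further (chr2:77180340-77186554) and which has another 5′ exon, held 98.2% ± 3.06 in Ag and 56.4% ± 11.8 in Ag+Costim, with no overlap. PSI of the distal 3′ stretch went from 0.491 to 0.0573 and that of the proximal 706 bases from 0.509 to 0.943. The direction was the same in both measures, toward the shorter 3′ end in Ag+Costim. Dividing counts by transcript length raised the difference of Sestd1-201 from 43.0 to 69.3 points, since its 2720 bases compare with 8990 of Sestd1-202.

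Plekhh3 encodes a protein with PH, MyTH4 and FERM domains. It had the largest change and the fewest counts, 70 to 212 per Ag library and 156 to 364 per Ag+Costim library. Plekhh3-206, of 793 residues, was at 0 in all Ag libraries (over 695 Plekhh3 counts) and held 93.0%, 81.3%, 56.7%, 93.9% and 68.5% in Ag+Costim. Plekhh3-201, of 796 residues, held 75.3%, 100%, 78.5%, 100% and 100% in Ag and 0% to 43.0% in Ag+Costim. Neither transcript overlapped between groups. The 9 bases shown above code within residues 471 to 474 and were included in 93.4% ± 10.7 of counts in Ag and 19.8% ± 17.6 in Ag+Costim. PSI went from 0.914 to 0.167. At the start of the gene the 2 measures went opposite ways, since PSI of the outermost 34 bases, which of this pair Plekhh3-201 alone holds, was 0.347 in Ag and 0.905 in Ag+Costim, and that of the adjoining 593 bases 0.655 and 0.0959.

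Capn15 encodes a calpain-family protease with zinc fingers. The 1196-residue Capn15-205 held 66.7%, 79.7%, 38.9%, 53.6% and 20.03% in Ag and 8.75%, 14.9%, 5.12%, 20.1% and 38.2% in Ag+Costim. The groups overlapped through Ag replicate 5 and Ag+Costim replicates 4 and 5. Among protein-coding transcripts alone the difference was -53.1 points in place of -34.4. Its counterpart Capn15-208, typed as a target of nonsense-mediated decay, held 18.7% ± 14.9 in Ag and 40.4% ± 13.5 in Ag+Costim. The 1095-residue Capn15-201 was at 0 in all Ag libraries and held 23.1%, 20.02%, 19.5%, 12.2% and 8.69% in Ag+Costim. Capn15-205 alone of this pair holds an intron of 105 bases as coding sequence (chr17:25960232-25960336), and its PSI went from 0.884 to 0.611. PSI of the 289-base exon that carries the start of the 1196-residue form (chr17:25973091-25973379) was 0.148 in Ag and 0.0581 in Ag+Costim.

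**Figure D2:**
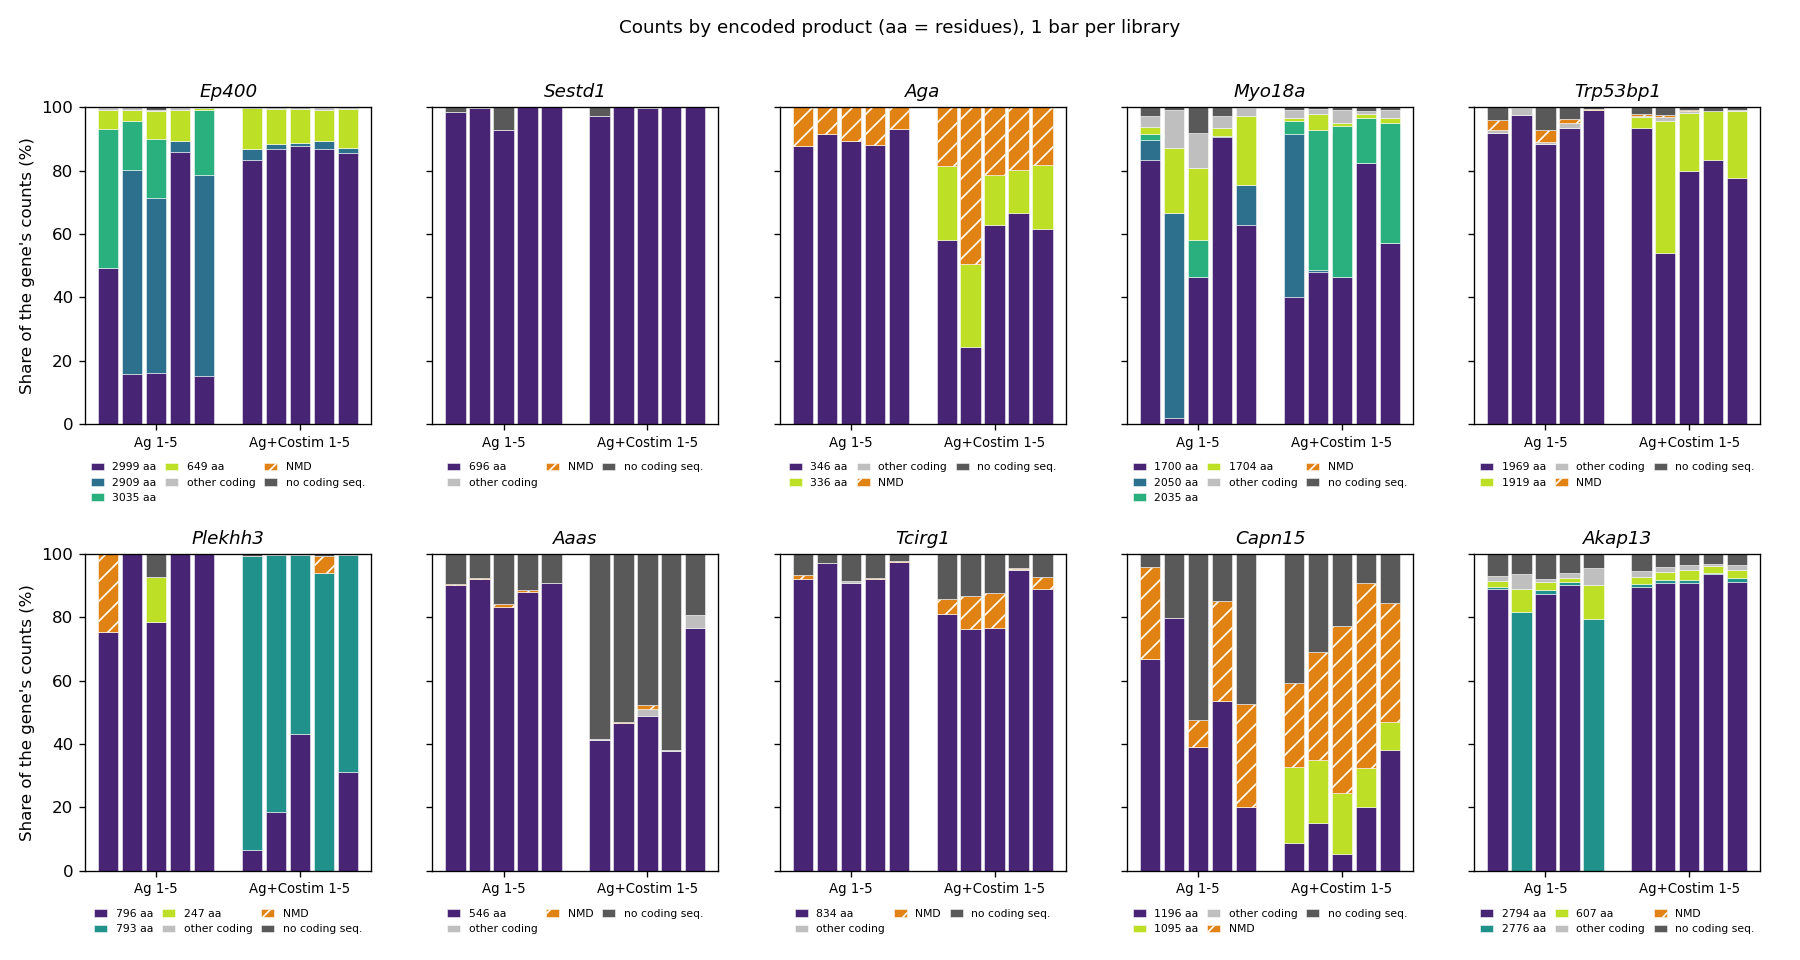
Share of each gene's counts (%, y axis) by encoded product, with 1 bar per library, for Ag (left) and Ag+Costim (right). Colours mark coding products by residue number (aa), products under 10% in every library are summed as other coding, and hatching marks transcripts typed as nonsense-mediated decay (NMD). Sestd1 keeps a single 696-residue product throughout, and the 834-residue product of Tcirg1 remains its main one. Aaas has more counts on transcripts with no coding sequence in Ag+Costim. The remaining 7 genes differ in their coding products, for Akap13 through Ag replicates 2 and 5. Capn15 also has many counts on NMD and noncoding transcripts.

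Summed by product, most genes fell into 3 kinds. In Ep400, Aga, Myo18a, Trp53bp1, Plekhh3 and Akap13 the lead transcript codes for another protein than the other main coding transcripts. In Sestd1 and Tcirg1 the protein stayed the same and the ends of the message differed. In Aaas a noncoding transcript took the share that the coding one had less of. Capn15 stood between these kinds. Beside coding forms of 1196 and 1095 residues, it held Capn15-208, typed as nonsense-mediated decay, and the retained-intron Capn15-207. The share of Capn15-207 was 27.6% ± 21.3 in Ag and 23.5% ± 12.2 in Ag+Costim. Transcripts typed as nonsense-mediated decay had a higher mean share in Ag+Costim in Aga (by 15.4 points, or 9.36 without Ag+Costim replicate 2). They also had a higher one, but with overlap between the groups, in Tcirg1 and Capn15. It was higher by 5.71 points in Tcirg1 (4.5 without Ag+Costim replicate 3) and by 21.5 points in Capn15 (16.46 without Ag replicate 2). Such transcripts had a lower mean share in Ag+Costim in Trp53bp1 (by -1.19 points), Plekhh3 (by -3.81 points) and Aaas (by -0.07 points). The sign turned in Plekhh3 without Ag replicate 1 (1.12 points) and in Aaas without Ag replicate 3 (0.03 points).

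PSI values were available for 284 events of the 10 genes. A difference over 0.05 was found in 61 of them, in 6 genes, with PSI higher in Ag+Costim in 49 events and higher in Ag in 12. Of all 138940 events in the table, 11.9% differed by as much, and since the members' events come from the contrast that chose them nothing is read from this. Ep400 alone held 41 of the 61, of which 36 were core exons, all higher in Ag+Costim. PSI of those 36 exons ranged from 0.184 to 0.918 in Ag and from 0.269 to 0.982 in Ag+Costim. Aga, Aaas, Tcirg1 and Akap13 had no event past this difference, and their largest was 0.0418, 0.0117, 0.0084 and 0.0353 in that order.

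Where an internal stretch tells lead and counterpart apart and has a PSI value, the 2 measures could be set side by side, in 16 comparisons over 7 genes. Inclusion computed from transcript counts moved by 19.9 points or more in each of them. Without Ag replicates 2 and 5 the 2 stretches of Akap13 moved by 0.3 and -0.3 points by counts, and those that Ep400-204 alone holds by 19.3 to 19.5 points. PSI moved by more than 5 points in the same direction in 9, in the other direction in 1, and by 5 points or less in 6. The 9 came from Ep400, Trp53bp1, Plekhh3 and Capn15 only. Stretches of the same transcript pair, as in Ep400 and Capn15, are not separate observations. Plekhh3 had the closest pair, with -73.6 points by counts and -74.7 points by PSI. Akap13 had one of the widest, with 38.9 points by counts and 1.83 points by PSI for its 66-base exon, a gap in change that rested on Ag replicates 2 and 5. PSI was computed by the authors from the raw reads with another tool than the counts, and the source of the gaps was not tested.

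**Figure D3:**
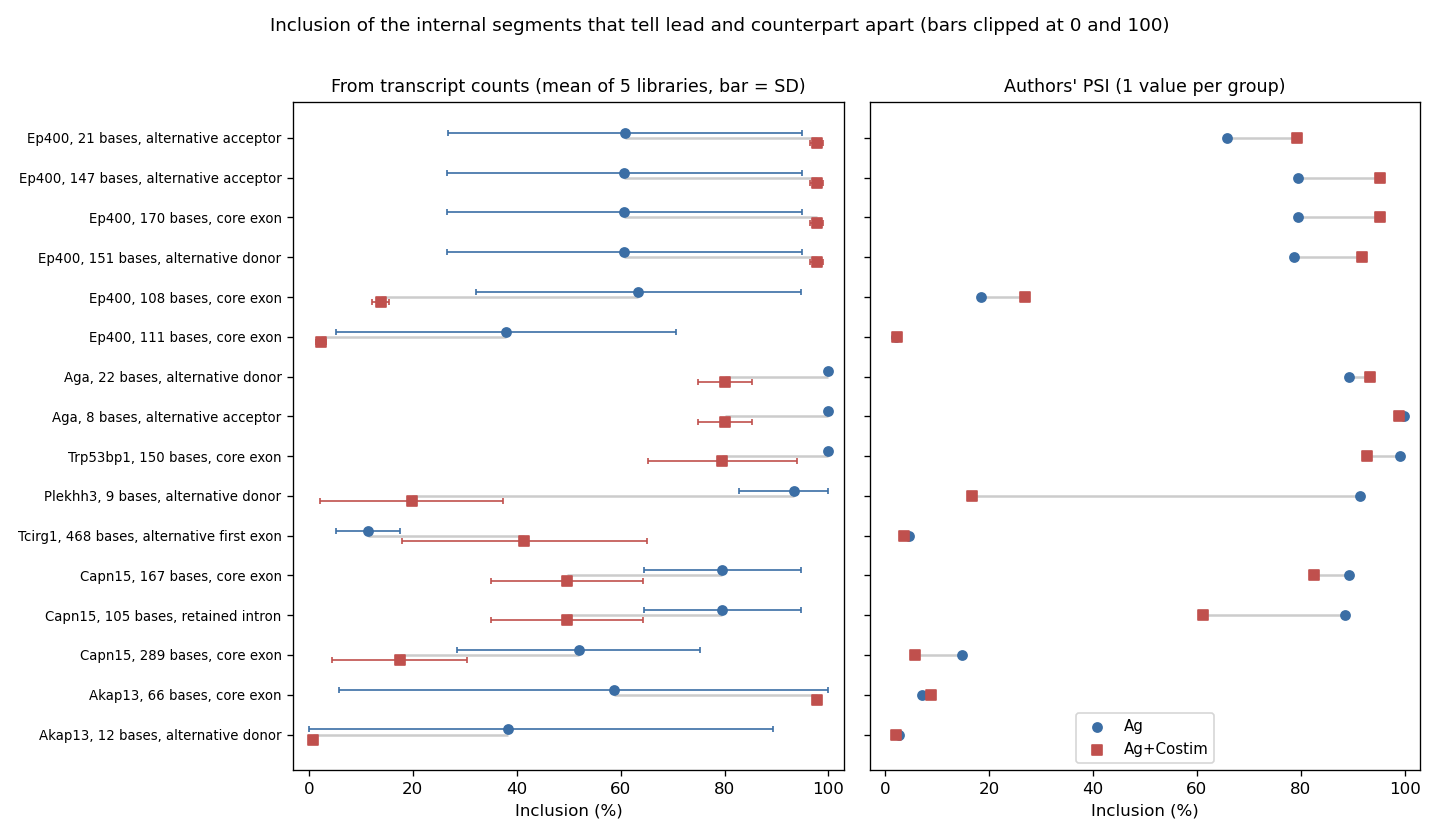
Inclusion (%, x axis) of the internal stretches that tell lead and counterpart apart, in Ag (blue circles) and Ag+Costim (red squares), from transcript counts with SD over 5 libraries (left) and as the authors' PSI per group (right). Lengths are those of the PSI event, and the adjoining 167 and 105 bases of Capn15 form 1 stretch of 272 bases on the left. The Plekhh3 pair is alike in both panels, and the Akap13 and Tcirg1 pairs are apart only on the left, for Akap13 through Ag replicates 2 and 5.

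Gene levels overlapped between the groups in all 10 genes. This is not set against the lead shares, since the members were chosen by their transcript shares. Of the 24262 genes tested, 5.65% had CPM values without overlap. In sorted bulk samples, fewer cells with a transcript and less RNA per cell cannot be told apart. Ep400 was at 76.0 ± 10.4 CPM in Ag and 84.5 ± 5.27 in Ag+Costim, Trp53bp1 at 43.7 ± 13.5 and 54.4 ± 5.92, and Aga at 24.7 ± 8.59 and 23.8 ± 1.53, with a fitted log2 difference of -0.06 that was 0.31 without Ag replicates 2 and 5. Aaas ranged from 36.9 to 169 CPM over the Ag libraries, with replicates 2 and 5 highest, and from 126 to 152 in Ag+Costim. The fitted log2 difference of Aaas was 0.55 ± 0.38 (SE) with all libraries and 1.43 without those replicates. Signs depended on the scaling for Ep400 (0.15 with TMM factors, edgeR's trimmed-mean scaling, and -0.14 by total counts) and Trp53bp1 (0.31 and -0.04). The median of genes at 10 CPM or more was itself at 0.24 with TMM factors and 0 by total counts. Without Ag replicates 2 and 5 this median was 0.59 with TMM factors. edgeR's quasi-likelihood test called 0 of 24262 genes (0%) at an adjusted p under 0.05, with 4501 genes at an unadjusted p under 0.05, and DESeq2 called 6214 of 43372 (14.3%), of which 778 were higher in Ag+Costim (1.79%) and 5436 lower (12.5%).

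**Figure D4:**
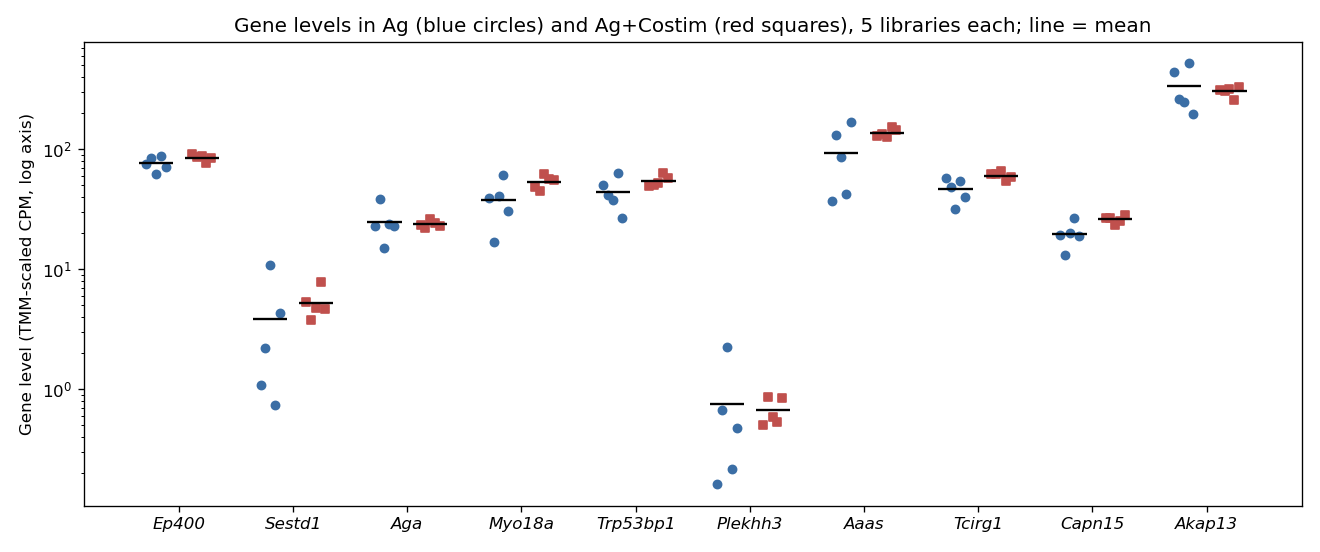
Gene level (TMM-scaled CPM, log axis) of the 10 genes in the 5 Ag (blue circles) and 5 Ag+Costim libraries (red squares), with lines at the means. The groups overlap in every gene, and the Ag libraries are the more scattered, as for Aaas at 36.9 to 169 CPM.

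Scaled per transcript length and to a common total (TPM), the order of the Ag+Costim levels was Aaas (116 ± 8.59), Akap13 (56.4 ± 7.50), Tcirg1 (35.6 ± 2.96), Aga (27.2 ± 2.94), Ep400 (15.2 ± 1.32), Myo18a (13.3 ± 1.58), Trp53bp1 (9.60 ± 0.606), Capn15 (9.04 ± 0.679), Sestd1 (1.75 ± 0.297) and Plekhh3 (0.345 ± 0.0865). Ep400 and Myo18a, and Trp53bp1 and Capn15, overlapped over libraries, and the other neighbours did not. In Ag the TPM levels were more scattered, as in Akap13 with 41.0 to 141 TPM and Sestd1 with 0.169 to 3.04 TPM. Sestd1 and Plekhh3 were thus expressed at a low level in both groups.

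Partner genes of the members, listed by function, were examined for a shift in level or in transcript use. None of the 6 lists had a gene called by edgeR at the gene level or in transcript usage with all libraries, while 2 to 8 genes a list were at an unadjusted p under 0.05. Without Ag replicates 2 and 5, the same test called 17.9% of 33480 genes higher and 30.8% lower in Ag+Costim. These shares are over genes of every level. The median log2 difference of genes at 10 CPM or more was then itself 0.59 with TMM factors. The share called among genes of similar level was not computed, so no list is read as raised. All 13 nuclear pore genes tested beside Aaas were above 0 under each scaling, with a median log2 difference of 0.74 with TMM factors and 0.48 by total counts, and all 13 were called higher without Ag replicates 2 and 5. The scaffold nucleoporins Nup93 and Nup107 had the largest differences, 0.97 ± 0.42 (SE) and 0.95 ± 0.40 log2 (edgeR adjusted p = 0.268 and 0.266). DESeq2 called 3 of the 13 higher and none lower.

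Beside Ep400, the 17 tested genes of the TIP60/p400 complex had a median of 0.33 with TMM factors and 0.14 by total counts. The median of all genes at 10 CPM or more was 0.24 and 0 on these scales. Counts of list genes above 0 here and in the other lists are therefore no sign of a shift particular to a list. There were 13 genes above 0 with the former and 9 with the latter, and without Ag replicates 2 and 5 edgeR called 13 higher and 1 lower. The ATPases Ruvbl1 and Ruvbl2 had the largest differences, 0.70 ± 0.36 log2 (edgeR adjusted p = 0.288) and 0.73 ± 0.38 (edgeR adjusted p = 0.292). Of the 15 tested genes of the 53BP1 pathway, 13 were above 0 with TMM factors and 10 by total counts, and 11 were called higher and none lower without Ag replicates 2 and 5. Brca1, which opposes 53BP1 in the choice of repair, was at 28.1 ± 15.7 CPM in Ag and 60.2 ± 11.1 in Ag+Costim (1.09 ± 0.37 log2, edgeR adjusted p = 0.237). Paxip1, a partner of 53BP1, was at 49.7 ± 23.9 and 96.4 ± 11.8 CPM (0.95 ± 0.32 log2, edgeR adjusted p = 0.239, DESeq2 adjusted p = 0.0481). DESeq2 called 4 genes of the TIP60/p400 list higher and 1 lower, and 2 of the 53BP1 list higher.

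In the other 3 lists the sign of the median depended on the scaling. The 16 V-ATPase genes tested beside Tcirg1 had a median of 0.12 with TMM factors and -0.12 by total counts. Without Ag replicates 2 and 5 edgeR called 12 higher and 1 lower. Their median was then 0.56, against 0.59 for all genes at 10 CPM or more. Among them the a2 subunit Atp6v0a2 was at 123 ± 34.6 CPM in Ag and 192 ± 18.3 in Ag+Costim (0.64 ± 0.20 log2, edgeR adjusted p = 0.222, DESeq2 adjusted p = 0.0293), and the a1 subunit Atp6v0a1 was low, at 1.58 ± 1.48 and 0.768 ± 0.412 CPM. The 16 lysosomal hydrolases beside Aga had medians of 0.01 and -0.23 on the same scales, with 6 called higher and 2 lower without Ag replicates 2 and 5. Naglu and Hexa, which remove sugars from glycans and gangliosides, were at -0.72 ± 0.22 and -0.68 ± 0.25 log2 (edgeR adjusted p = 0.226 and 0.246, DESeq2 adjusted p = 0.0226 and 0.0404). The 7 calpain genes had medians of 0.22 and -0.08, with 3 called higher and none lower without Ag replicates 2 and 5, and with the small subunit Capns1 at 76.1 ± 18.3 and 113 ± 7.76 CPM (0.57 ± 0.17 log2, edgeR adjusted p = 0.204) and Capn5 at 1.29 ± 1.97 and 0.853 ± 0.288 CPM. DESeq2 called 2 V-ATPase genes higher, 1 lysosomal gene higher and 2 lower, and none of the calpain genes.

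Among 10243 other genes with at least 50 counts in every library, the lead shares most like those of the 10 members over the 10 libraries were those of Homer3, Gucy2e and Pif1. Their mean absolute Pearson r with the 10 lead shares was 0.80, 0.79 and 0.79, a description over 10 libraries that fall into 2 groups. Homer3-203 held 4.6% ± 10.2 of its gene's counts in Ag and 61.7% ± 14.4 in Ag+Costim. Gucy2e-202 held 2.3% ± 3.1 and 23.9% ± 6.1, and Pif1-208 held 6.7% ± 10.02 and 66.6% ± 4.55.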

How the data were processed

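Poly(A) RNA libraries made with SMART-Seq v4 were aligned to mm10 with HISAT2 2.1.0, sorted with SAMtools 1.9 and counted with StringTie 2.1.0, per the labels. The deposited gene and transcript tables hold expected counts, estimated from coverage and rounded to whole numbers with no normalization. The authors ran Whippet on raw reads and deposited PSI as a fraction, 1 value per group. Their columns of PSI differences and probabilities of a difference were not used, so events were chosen by a PSI difference over 0.05 alone. Identifiers matched GENCODE M21, and 26345 rows of other identifiers, at most 0.308% of a library's counts, were left out.

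A transcript's share is its count over the gene's count in that library. Members and gene lists were chosen with earlier results of these data known. Named beside the 10 members are their lead and counterpart transcripts, the PSI events that tell these apart, the 2 genes of each partner list with the largest log2 difference (none passed edgeR's test, while DESeq2 called Paxip1, Atp6v0a2, Naglu and Hexa, and 1 further list is not reported here), and the 3 most similar genes. Transcript usage was tested with edgeR 4.0.16 (diffSpliceDGE, at least 10 counts in 5 libraries) and gene counts with edgeR's quasi-likelihood test (filterByExpr, TMM), in R 4.3.3, both with Benjamini-Hochberg adjustment over all genes tested. In simulated data with 148 genes of changed usage among 14504 tested, 89.9% were called, with 4 false calls. The simulation gave all libraries the same spread around common means, with none standing apart as Ag replicates 2 and 5 did. These rates therefore do not measure how well the test does on the present libraries. DESeq2 1.42.0 and limma 3.58.1 were run as alternatives, with other filters, scalings and left-out libraries. Every library was run on lane 4.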

Additional observations from a re-analysis of the deposited data

Results flagged for a closer look

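In 5 of 60 groups of 5 libraries examined (lead share, counterpart share and gene level of the 10 genes), 1 library lay far from the others. Chance alone gives about 1 in 20 for independent groups of normal values. That rate is only a rough guide here, since 5 of the groups were at 0 throughout and could not be flagged. The shares of a lead and its counterpart also depend on each other. The Aga-201 share was 24.3% in Ag+Costim replicate 2 against 58.2% to 66.7% in the other Ag+Costim libraries. The Aaas-201 share was 76.7% in Ag+Costim replicate 5 against 37.9% to 48.8% in the others. The Myo18a-202 share was 4.76% in Ag+Costim replicate 2 against 0.90% to 1.53%. The Sestd1-202 share was 92.8% in Ag replicate 3 against 98.6% to 100%. The Plekhh3 level was 2.26 CPM in Ag replicate 3, the library with the lowest total, against 0.161 to 0.668 CPM in the other Ag libraries.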

How the results depend on the processing

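The 10 lead-share differences kept their sign under every alternative run. Of 140 alternative values, 137 moved by less than the spread between libraries, a count largely fixed in advance. Leaving out 1 library of 5 cannot move a group mean by that much. Where the lead was at 0 in every Ag library, leaving out an Ag library changed nothing. The values that moved by more were Sestd1 with counts divided by length (69.3 points), Aaas among protein-coding transcripts (-2.0) and Akap13 without Ag replicates 2 and 5 (2.5). Capn15 among protein-coding transcripts was at -53.1 in place of -34.4. The median lead-share difference was 35.0 to 39.8 points with 1 library left out, and the median product-share difference 34.8 points, or 26.9 to 37.5. The small Sestd1 product difference of 1.2 points turned to -0.1 without Ag replicate 3, and ran up to 1.7 with another library left out. Genes called in transcript usage numbered 29, and 144 with limma, 19 with at least 50 counts and 157 with no filter. With 1 library left out (at least 10 counts then required in 4 libraries) they numbered 32 to 94, and 446 without Ag replicates 2 and 5, an alternative chosen after seeing the data, as these had the fewest transcripts above 0. Gene calls were 0 with edgeR, 6214 with DESeq2 and 16322 without Ag replicates 2 and 5. Replicate numbers are shared by the groups, but deviations of same-numbered libraries correlated at -0.44 to 0.21, so the numbers do not pair them. With the replicate block, 29 genes were called in transcript usage, 15 of them among the 29 without it (Ep400, Plekhh3 and Akap13 were lost), and 0 in gene expression. Low counts limit Plekhh3 and Sestd1 most.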

Other observations

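Zero counts were unevenly distributed between the groups. Over all annotated transcripts, 60 were at 0 in every Ag library and above 0 in every Ag+Costim library, and 16 had the reverse pattern. With at least 100 counts asked of every library of the other group, 12 transcripts were at 0 in all Ag libraries and 0 transcripts were at 0 in all Ag+Costim libraries. Of the 12, 6 belong to the genes described above: Sestd1-201, Aga-203, Myo18a-203, Trp53bp1-201, Plekhh3-206 and Capn15-201. These genes were chosen by their transcript shares in the same contrast, so nothing is read from that number. Ag replicates 2 and 5 had the fewest transcripts above 0, at 59927 and 58669, and their part in the uneven zeros was not tested. PSI values for the same stretches were not at their limits in Ag, as with 0.991 for the Trp53bp1 exon and 0.892 for the 22 bases of Aga, where counts gave full inclusion in all 5 Ag libraries. Whether this comes from how counts were assigned to transcripts was not tested.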
